A study of Homo sapiens with 15 samples.

Results

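Ion transport genes were read in Caco-2, a line of epithelial cells established from a human colon tumour and used here before differentiation. The genes were 7 of the 19775 measured and were listed by symbol: SLC12A2, KCNE3, KCNQ1, CFTR, SLC26A3, ATP1B1 and SCNN1A. The brightest probe set of each, by its mean over the 15 arrays, gave the values, and any others of the gene served as a check. Treatment in medium without serum lasted 24 h, and total RNA of each treatment was put on 1 array. The treatments were plain medium, NaCl at 100 mM as the salt control, 5 mM butyrate (a bacterial short-chain fatty acid that inhibits histone deacetylases) and 12 cell-free fluids added at 10% by volume. These fluids came from a colon simulator run for 48 h with 0%, 1% or 2% polydextrose, a poorly digested glucose polymer. Its 4 vessels are connected in a row: vessel 1 models the ascending, vessel 2 the transverse and vessel 3 the descending part of the colon, and vessel 4 the sigmoid and rectal end.

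Chloride secretion moves salt, and with it water, into the gut lumen. SLC12A2 (also called NKCC1) carries chloride into the cell across the basolateral membrane together with sodium and potassium, on the gradient that the sodium pump maintains. ATP1B1 is the beta-1 subunit of that pump. Potassium leaves again through KCNQ1, a channel that KCNE3, its accessory subunit in the gut, holds open. CFTR is the apical channel through which chloride reaches the lumen. Absorption is served by SLC26A3, an apical exchanger of chloride for bicarbonate, and by SCNN1A, the alpha subunit of the epithelial sodium channel.

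KCNE3 and SCNN1A carried the largest differences of the 7 genes. Both were highly expressed in medium and lower by over 4 log2 units with butyrate. In the fluids of vessels 2 to 4 both were lower the more polydextrose had been fermented, while in vessel 1 they stayed within 0.48 of their values with 0% fluid. With NaCl the chloride uptake gene SLC12A2 and the sodium pump gene ATP1B1 had their highest values of all arrays. CFTR and SLC26A3, the apical chloride routes, lay under the signal limit in nearly every array.

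The upstream sequences of KCNE3, SLC12A2 and ATP1B1 are given first, with SLC26A3, which had no signal above the limit, beside them for contrast. They are the 250 bases before the gene start, from RefSeq (GRCh38.p14), written 5′ to 3′ on the strand of the gene. Sequences were matched for 5 of the 7 genes, and not for SCNN1A and KCNQ1. Capitals mark the GC box GGGCGG, the core of a site of SP1-type factors, on either strand, and in SLC26A3 the HNF1 motif GTTAAT.
KCNE3 (chr11:74467550-74467799, minus strand): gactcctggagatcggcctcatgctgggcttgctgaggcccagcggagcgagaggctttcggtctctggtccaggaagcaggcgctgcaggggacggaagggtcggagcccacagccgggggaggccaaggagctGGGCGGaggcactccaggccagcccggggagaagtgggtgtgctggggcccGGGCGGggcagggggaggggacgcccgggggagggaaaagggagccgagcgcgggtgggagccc
SLC12A2 (chr5:128083516-128083765, plus strand): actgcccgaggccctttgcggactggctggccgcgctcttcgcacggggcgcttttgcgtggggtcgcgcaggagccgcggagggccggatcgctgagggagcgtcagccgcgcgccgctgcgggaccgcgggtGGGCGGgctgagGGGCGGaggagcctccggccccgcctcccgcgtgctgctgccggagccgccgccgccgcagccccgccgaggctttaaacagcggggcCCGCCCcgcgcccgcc
ATP1B1 (chr1:169106440-169106689, plus strand): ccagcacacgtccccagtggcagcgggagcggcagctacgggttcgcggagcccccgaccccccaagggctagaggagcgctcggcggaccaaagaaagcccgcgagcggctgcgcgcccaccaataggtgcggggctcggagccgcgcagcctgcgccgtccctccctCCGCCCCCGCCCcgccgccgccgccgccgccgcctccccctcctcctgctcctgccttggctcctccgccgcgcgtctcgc
SLC26A3 (chr7:107803224-107803473, minus strand): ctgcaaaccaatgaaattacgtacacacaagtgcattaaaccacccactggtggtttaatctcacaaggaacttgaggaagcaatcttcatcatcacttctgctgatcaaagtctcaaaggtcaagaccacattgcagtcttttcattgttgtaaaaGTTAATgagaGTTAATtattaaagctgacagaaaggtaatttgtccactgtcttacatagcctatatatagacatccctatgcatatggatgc
The windows of KCNE3, SLC12A2 and ATP1B1 hold 2, 3 and 2 GC boxes, and the CFTR and SLC26A3 windows hold none. A GC box lies in 42.3% of 27305 upstream windows of this length, so its presence is common. G and C make up 73.2% of the KCNE3 window, 79.6% of the SLC12A2 window and 77.6% of the ATP1B1 window. They make up 61.2% in CFTR and 37.6% in SLC26A3, with a median of 58.0% over all windows. SLC26A3 holds 2 HNF1 motifs, which occur in 6.22% of all windows, and the other 4 windows hold none. The letters TGGAAA, the core of the site of the tonicity factor NFAT5, were in none of the 5 windows and in 18.3% of all. The letters CCAAT were found 1 time each in CFTR, SLC26A3 and ATP1B1 (33.0% of all windows hold them), and the cAMP response element TGACGTCA (1.77%) and TATAAA (11.1%) in none of the 5. All motifs were searched on both strands, and no match overlapped another. These matches describe the letters of short windows and are no evidence of binding.

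Levels of the 7 genes differed widely, as the plot of all arrays shows. Values are log2 expression values as the authors normalized them, and values under 5 are treated as below the limit of reliable signal. They are compared between arrays within a gene, because probe sets of different genes are not on one scale. ATP1B1 (11.83 to 13.13) and SLC12A2 (10.57 to 11.51) were above the limit in all arrays, and KCNE3 (5.43 to 10.70) was too. SCNN1A ran from 4.50 to 10.40 and was under the limit with butyrate alone. KCNQ1 (4.59 to 5.71) lay near the limit throughout. CFTR (2.39 to 5.05) passed it with NaCl alone, and SLC26A3 (1.52 to 2.30) in no array.

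**Figure D1:**
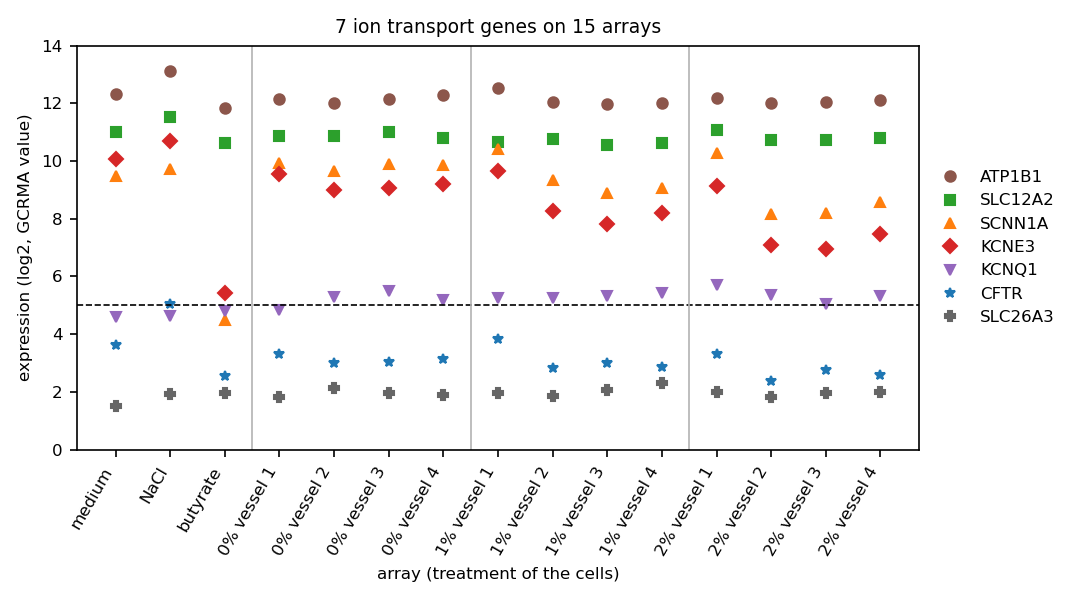
Expression (log2 value, y axis) of the 7 genes on each of the 15 arrays (x axis), 1 point per gene and array, with the dashed line at the signal limit of 5. KCNE3 and SCNN1A drop with butyrate to 5.43 and 4.50 and decline stepwise in vessels 2 to 4 of 1% and 2%, while ATP1B1 stays between 11.83 and 13.13.

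The cells carried most of the listed epithelial markers but few of mature cell types. Of 8 epithelial markers 6 were above the limit in all 15 arrays (KRT8, KRT18, KRT20, CDH1, EPCAM and CDH17) and 2 (VIL1 and GPA33) in none. Of 8 enterocyte markers 7 were under it in all 15 arrays, and so were all 6 ionocyte and tuft cell markers, 5 of 6 goblet cell markers, 6 of 7 fibroblast markers and all 5 leukocyte markers measured. COL1A1 was the exception among the fibroblast markers, at 1.37 in medium and 8.13 with butyrate. The 3′ to 5′ difference of the ACTB control probe sets, which depends on RNA integrity, came to 0.95 in medium, 0.64 with NaCl and 0.59 with butyrate. It was 0.62 to 0.92 in vessel 1 and 0.37 to 0.64 in vessels 2 to 4. In RNA from whole cultures, fewer cells that express a gene and less RNA per cell cannot be told apart.

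Butyrate was set against medium to show the effect of the purified acid. KCNE3 was at 10.07 in medium and 5.43 with butyrate, a difference of -4.65 or 25.0-fold lower. Both other KCNE3 probe sets were lower too, from 6.99 to 2.46 and from 5.45 to 3.34, with the butyrate values under the signal limit. SCNN1A was at 9.46 in medium and 4.50 with butyrate, where it was under the limit. With the limit in its place SCNN1A was at least 22.1-fold lower (a difference of -4.46 or below). The other 2 probe sets of SCNN1A lay under the limit on all arrays (3.36 to 4.28) and are silent on this gene. The remaining genes differed little. SLC12A2 was at 11.00 in medium and 10.62 with butyrate (-0.38), and ATP1B1 at 12.33 and 11.83 (-0.50). Of the 4 genes bright enough to be compared, 2 thus differed by at least 1 log2 unit, where 31.2% of all genes compared did. KCNQ1 (4.59 and 4.81), CFTR (3.62 and 2.56) and SLC26A3 (1.52 and 1.97) were under the limit in both arrays. Each side is 1 array, so these differences have no replicate check and no test. The median of all genes was 3.63 in medium and 3.85 with butyrate, and centring each array on it left these counts as they were.

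NaCl was the salt control, and its array was also set against medium. ATP1B1 was at 13.13 with NaCl and 12.33 in medium, a difference of 0.80, and its second probe set differed by 1.00. For SLC12A2 the probe sets differed in size: the brighter went from 11.00 to 11.51 (0.51) and the other from 9.84 to 11.70 (1.86). In both genes each probe set had its highest value of all 15 arrays with NaCl, as the bars for each probe set show beside the butyrate differences. KCNE3 was 0.63 higher with NaCl (10.70), with the other 2 probe sets 0.54 and 1.05 higher. SCNN1A differed by 0.26. CFTR was at 5.05 with NaCl, its only value over the limit, against 3.62 in medium and 2.39 to 3.82 in the fluids. The next CFTR probe set was highest with NaCl too (3.99, against 3.24 in medium), but under the limit. From the probe sets chosen, 0 of the 4 genes compared differed by at least 1 log2 unit, where 16.6% of all genes did. With the mean of all probe sets of a gene SLC12A2 did, at 1.19.

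**Figure D2:**
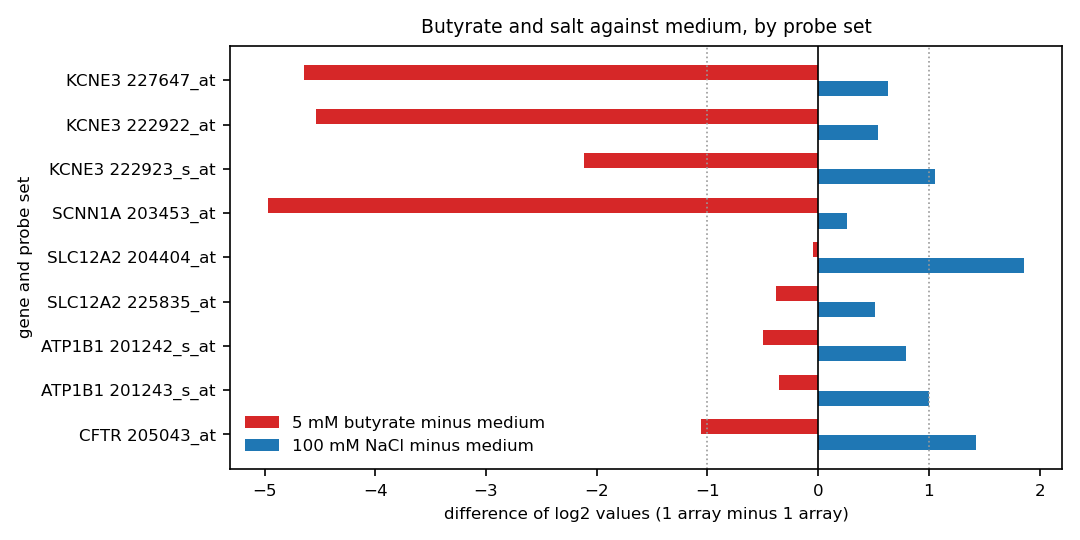
Difference in log2 value (x axis) of butyrate (red) and NaCl (blue) from medium for each probe set of a listed gene that reached the signal limit of 5 in at least 1 of these 3 arrays (y axis), with dotted lines at 1 log2 unit; each bar is 1 array minus 1 array, as measured, so bars whose lower side was under the limit are not bounds. All 3 KCNE3 probe sets are lower with butyrate, and the SLC12A2 probe sets differ in size with NaCl (0.51 and 1.86).

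The fluids fermented without polydextrose were compared with medium to show the effect of the fluid itself. KCNE3 was at 9.55, 8.99, 9.06 and 9.21 with 0% fluid of vessels 1 to 4, all below medium (10.07), with a mean difference of -0.87. SCNN1A was at 9.92, 9.66, 9.88 and 9.84, all above medium (9.46), with a mean difference of 0.36. In the deposited values the 2 genes thus lay on opposite sides of medium in this fluid, although both were lower with butyrate. For SCNN1A this rests on a small difference from 1 medium array. The median of all genes was 3.63 in that array and 3.75 to 3.83 in these fluids, so the side of SCNN1A is uncertain. SLC12A2 (10.80 to 10.99) and ATP1B1 (12.02 to 12.27) stayed below their medium values of 11.00 and 12.33, by 0.12 and 0.18 on average, but their second probe sets were 0.088 and 0.057 above medium. KCNQ1 was under the limit in medium (4.59) and at 4.85, 5.29, 5.51 and 5.19 with 0% fluid. None of the 4 genes compared reached a difference of 1 log2 unit, where 12.6% of all genes did. For KCNE3 the difference passed it with arrays centred on their median (-1.04), with the mean of its probe sets (-1.14) and with NaCl as the control (-1.50).

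Fermenting 2% polydextrose in place of 0% asks what the fibre adds to the fluid. KCNE3 was at 9.15, 7.10, 6.94 and 7.46 with 2% fluid of vessels 1 to 4. Its values in vessels 2 to 4 lay below all 4 values with 0% fluid, while vessel 1 lay among them. KCNE3 fell from 9.20 ± 0.25 to 7.66 ± 1.02 (SD, n = 4), a change of -1.54 with a standard error of 0.24 (limma with vessel as a block, adjusted p = 0.00441). The difference had 1 sign in all 4 vessels, at -0.41 in vessel 1 and -1.90, -2.12 and -1.75 in vessels 2 to 4. SCNN1A was at 10.29, 8.15, 8.18 and 8.57 with 2% fluid, so vessel 1 lay above all values with 0% fluid and the other 3 below. SCNN1A fell from 9.82 ± 0.11 to 8.80 ± 1.01 (SD, n = 4), a change of -1.02 with a standard error of 0.29 (limma, adjusted p = 0.0378). Vessel 1 was 0.38 higher, and the later vessels differed by -1.50, -1.69 and -1.27.

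These calls depend on how vessel 1 is treated. Without vessel 1 KCNE3 fell by 1.92 (limma, adjusted p = 1.53e-04) and SCNN1A by 1.49 (adjusted p = 5.54e-04). Over all genes 3205 passed in that fit, against 1820 with all vessels. With all vessels and no block for vessel neither passed (adjusted p = 0.214 for KCNE3 and 0.218 for SCNN1A), and 0 of all genes did. KCNE3 passed in each of 12 fits that left out 1 array (adjusted p up to 0.0233). SCNN1A passed in 3 of these 12 fits and lost its call without vessels 2, 3 or 4 of 0%, of 1% or of 2% (adjusted p up to 0.134). With the mean of its 3 probe sets, of which 2 are silent, SCNN1A differed by -0.36 (adjusted p = 0.0586). The second KCNE3 probe set fell by 1.37 (adjusted p = 0.0167).

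The other genes tested did not pass at 2%. SLC12A2 was at 11.08, 10.73, 10.72 and 10.79 with 2% fluid, against 10.86, 10.87, 10.99 and 10.80 with 0%. Its difference of -0.05 had a 95% interval of -0.26 to 0.16 (limma, adjusted p = 0.734). ATP1B1 was at 12.18, 12.03, 12.04 and 12.12, and differed by -0.05 (interval -0.29 to 0.18, adjusted p = 0.742). The groups overlapped in both genes. KCNQ1 was at 5.71, 5.35, 5.04 and 5.33 and differed by 0.15 (interval -0.23 to 0.53, adjusted p = 0.558). CFTR (2.39 to 3.33) and SLC26A3 (1.83 to 2.01) did not pass the filter for signal and were not tested. Without the filter neither passed at 2% (limma, adjusted p = 0.115 and 0.958). In all 2 of the 5 genes tested passed, both downward, where 20.8% of 8737 genes passed in either direction. Each concentration had 1 simulation, so the concentration and the simulation cannot be told apart, and p-values measure only the spread among these 12 arrays.

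At 1% polydextrose KCNE3 and SCNN1A lay between their values of 0% and 2% in the later vessels. KCNE3 was at 9.66, 8.27, 7.82 and 8.19 with 1% fluid of vessels 1 to 4, and SCNN1A at 10.40, 9.33, 8.91 and 9.07. In vessels 2, 3 and 4 the 0%, 1% and 2% values of both genes followed each other downward, as the lines for each vessel show. How many of all genes have this order was not counted. With all vessels neither gene passed for 1% against 0%: KCNE3 differed by -0.72 (interval -1.26 to -0.17, limma, adjusted p = 0.113) and SCNN1A by -0.40 (interval -1.06 to 0.26, adjusted p = 0.432). Without vessel 1 both did, at -0.99 (adjusted p = 0.00725) and -0.69 (adjusted p = 0.0240), and so they did without vessel 1 of 0% alone, at -1.04 (adjusted p = 0.00499) and -0.78 (adjusted p = 0.0246). Calls rose over all genes too, from 418 with all vessels to 1136 without vessel 1 and 1185 without vessel 1 of 0%. SLC12A2 was at 10.65, 10.76, 10.57 and 10.63 with 1% fluid, all below its 0% values. Groups without overlap were seen in 8.44% of all genes, but the difference of -0.23 missed the threshold (adjusted p = 0.168). The second SLC12A2 probe set differed by 0.0011. ATP1B1 was at 12.52, 12.05, 11.97 and 12.00 and KCNQ1 at 5.25, 5.26, 5.33 and 5.44, and neither passed (adjusted p = 0.970 and 0.719). Of the 5 genes 0 passed, where 4.78% of all genes did.

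**Figure D3:**
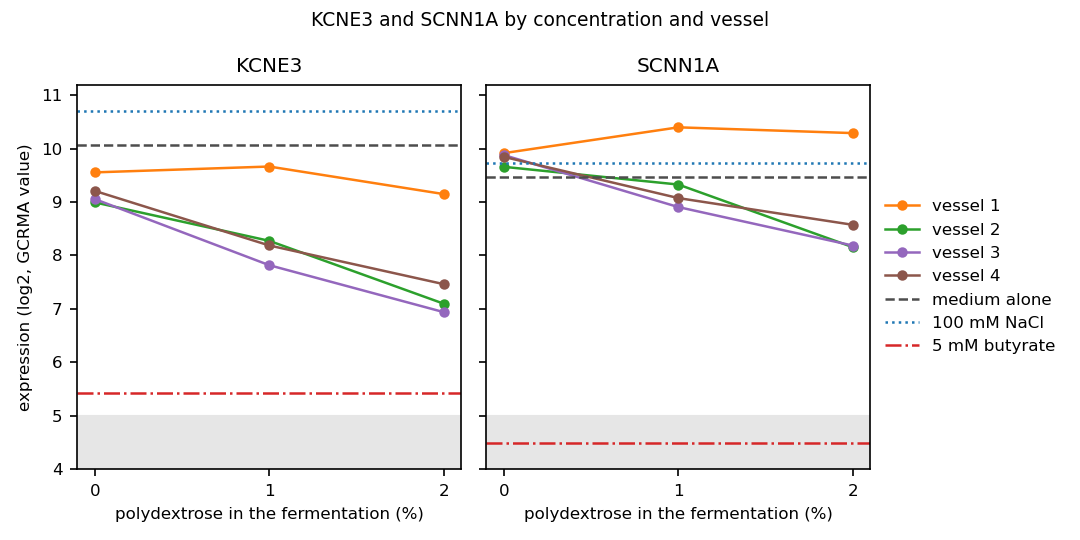
Expression (log2 value, y axis) of KCNE3 and SCNN1A against the polydextrose percentage in the fermentation (x axis), 1 line per vessel and 1 point per array, with horizontal lines for the medium, NaCl and butyrate arrays and grey under the signal limit of 5. Vessels 2 to 4 decline at each step to 6.94 to 7.46 for KCNE3 and 8.15 to 8.57 for SCNN1A, while vessel 1 stays at 9.15 or higher in both.

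Between 2% and 1% fluid 0 of the 5 genes passed by limma, and 0% of all genes did. KCNE3 differed by -0.82 (unadjusted p = 0.00762, adjusted p = 0.170) and SCNN1A by -0.63 (adjusted p = 0.286), with 4 of 4 vessels lower at 2% in both. The share of all genes with 1 sign in 4 of 4 vessels was not counted. Over all genes 1608 of 8737 had an unadjusted p under 0.05. Without vessel 1 both genes passed, KCNE3 at -0.93 (adjusted p = 0.0198) and SCNN1A at -0.80 (adjusted p = 0.0469). KCNE3 also passed from the 8 arrays of these concentrations alone (adjusted p = 0.0484) and without vessel 1 of 0% (adjusted p = 0.0120). SLC12A2 (0.18), ATP1B1 (-0.05) and KCNQ1 (0.04) did not pass.

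The fluid of vessel 1, the ascending colon, was compared with those of vessels 2 to 4 over all concentrations. KCNE3 was at 9.46 ± 0.27 (SD, n = 3) in vessel 1 and 8.11 ± 0.85 (SD, n = 9) in the later vessels, higher by 1.34 with a standard error of 0.23 (limma with concentration as a block, adjusted p = 0.00311). SCNN1A was at 10.20 ± 0.25 (SD, n = 3) and 9.07 ± 0.67 (SD, n = 9), higher by 1.13 with a standard error of 0.28 (adjusted p = 0.0129). These averages hide a dependence on concentration. With 0% fluid KCNE3 was at 9.55 in vessel 1 and at a mean of 9.09 later, and SCNN1A at 9.92 and 9.79. With 2% fluid KCNE3 was at 9.15 and 7.17, and SCNN1A at 10.29 and 8.30. All 3 values of SCNN1A in vessel 1 lay above its 9 later values, as was the case with groups without overlap in 11.8% of all genes. Values of KCNE3 overlapped, since vessel 4 of 0% (9.21) lay above the lowest of vessel 1 (9.15). ATP1B1 (0.21, adjusted p = 0.127), SLC12A2 (0.11, adjusted p = 0.372) and KCNQ1 (-0.03, adjusted p = 0.899) did not pass. Thus 2 of 5 genes passed, where 34.7% of all genes did. The 9 later arrays come from connected vessels of the same simulations and are not independent, so these p-values measure only the spread among the arrays. SCNN1A lost its call without vessel 1 of 1% (adjusted p = 0.0746) and without vessel 1 of 2% (0.71, adjusted p = 0.0748), and without the term for concentration neither gene passed (0.0867 and 0.0786). CFTR was under the limit in all 12 fluids, at 3.31 to 3.82 in vessel 1 and 2.39 to 3.15 later, and did not pass the filter for signal. In the fit without that filter CFTR was 0.64 higher in vessel 1 (limma, adjusted p = 0.00528), with every value under the limit. The next CFTR probe set did not show this difference, at 2.70, 2.23 and 2.34 in vessel 1 and 2.18 to 2.80 later. The ACTB difference given above was 0.62 to 0.92 in vessel 1 and 0.37 to 0.64 in the later vessels, which overlap, and its part in these differences was not tested.

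**Figure D4:**
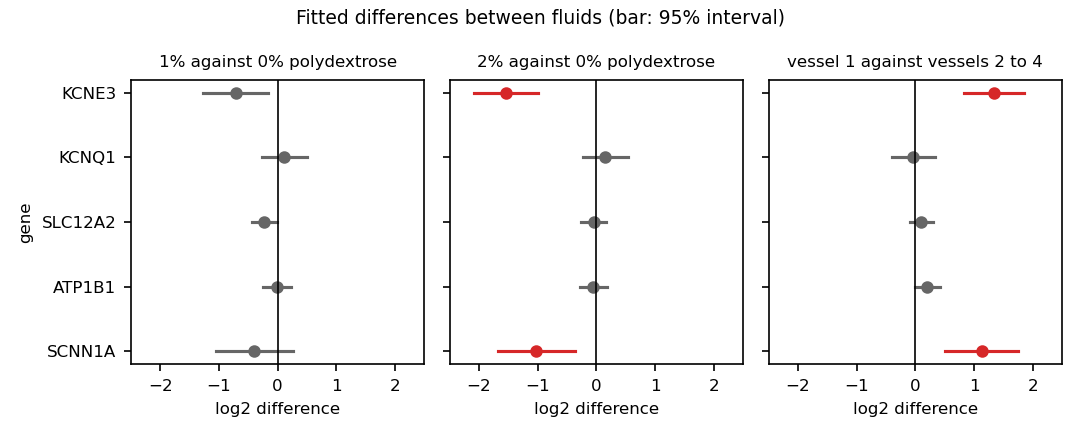
Fitted log2 difference (x axis) of the 5 genes that passed the filter for signal (y axis), with bars for the 95% interval, for 1% against 0%, 2% against 0% and vessel 1 against vessels 2 to 4; red marks an adjusted p under 0.05. KCNE3 and SCNN1A are lower at 2% (-1.54 and -1.02) and higher in vessel 1 (1.34 and 1.13), and KCNQ1, SLC12A2 and ATP1B1 passed in none of these comparisons.

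Whether the dependence on polydextrose differed in vessel 1 was tested as an interaction with concentration as a linear term. For KCNE3 the slope was -0.20 log2 units per percent of polydextrose in vessel 1 and -0.96 in vessels 2 to 4, a difference of 0.76 with a standard error of 0.13 (limma, adjusted p = 0.0390). For SCNN1A the slopes were 0.19 and -0.75, a difference of 0.93 with a standard error of 0.15 (adjusted p = 0.0325). KCNQ1 had slopes of 0.43 and -0.04 and did not pass (0.47, adjusted p = 0.0995). SLC12A2 (0.18, adjusted p = 0.515) and ATP1B1 (0.07, adjusted p = 0.818) did not pass either. The interaction passed for 2 of 5 genes, where 0.801% of all genes passed. The vessel 1 slope rests on 3 arrays, and the call was lost in 9 of 12 fits that left out 1 array for KCNE3 and in 7 of 12 for SCNN1A. The adjusted p was highest without vessel 1 of 0%, at 0.278 for KCNE3 (0.44) and 0.224 for SCNN1A (0.64). Both calls held without vessel 1 of 1%, vessel 1 of 2% or vessel 4 of 2%, and that of SCNN1A also without vessel 2 or 3 of 1%.

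The 2% fluids were set beside purified butyrate. KCNE3 was lower with butyrate (5.43) than in any 2% fluid, the lowest of which was vessel 3 at 6.94, and the mean of the 4 fluids was 2.23 higher. SCNN1A was at 8.15 or more in these fluids and under the limit with butyrate, at least 3.80 higher on average. Without vessel 1 the differences were 1.74 and at least 3.30. SLC12A2 (0.21) and ATP1B1 (0.26) differed little. Of the 4 genes compared 2 differed by at least 1 log2 unit, both upward in the fluid, where 5% of all genes did. Ordered by level, KCNE3 thus ran from NaCl (10.70), medium (10.07) and 0% fluid (9.20) over 1% (8.49) and 2% (7.66) to butyrate (5.43). Of the neighbours in this order that could be tested, 0% and 1% fluid, and 1% and 2% fluid, did not pass the test against the spread of their vessels. SCNN1A ran from 0% fluid (9.82), NaCl (9.73) and medium (9.46) over 1% (9.43) and 2% (8.80) to butyrate (4.50), with the same limit on its neighbours. Its place for medium rests on 1 array, while the 1% values ran from 8.91 to 10.40. The fluid means of both genes include vessel 1, without which both steps passed, as given above.

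The genes closest in pattern to each of the 7 over the 15 arrays were found among 5478 genes with a clear signal and a span of at least 1 log2 unit. For KCNE3 they were PRSS23, a serine protease (Pearson r = 0.99, Spearman rho = 0.98), SPATS2L (0.99 and 0.99) and C9orf152 (0.99 and 0.98, or 0.97 for Pearson r without butyrate and vessel 3 of 2%). For SCNN1A they were EHF, an epithelial transcription factor of the ETS family (r = 0.99, rho = 0.91), RNF43, an enzyme that removes Wnt receptors (0.98 and 0.94), and ZMYND8, a chromatin reader (0.97 and 0.94). EHF was at 11.35 in medium and 7.64 with butyrate. Without butyrate and vessel 2 of 2%, the 2 arrays farthest from the SCNN1A median, these 3 had r = 0.92, 0.94 and 0.94. KCNE3 and SCNN1A had r = 0.86 over all 15 arrays and 0.98 over the 12 fluids, and SCNN1A ranked 507 among the genes most like KCNE3. ATP1B1 came closest to GNE, an enzyme of sialic acid synthesis (r = 0.97, and 0.92 without NaCl and vessel 1 of 1%), which was at 11.00 with NaCl and 8.51 in medium. For KCNQ1 the closest was NDRG1, a stress-induced protein (r = 0.89, and 0.81 without medium and NaCl), and for CFTR, mostly under the limit, it was MCRS1 (r = 0.98, and 0.91 without NaCl and vessel 1 of 1%). SLC12A2 and SLC26A3 spanned less than 1 log2 unit. The arrays share treatments and are not independent, so these values describe the pattern only.

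Other genes of ion transport and its control were read from 10 lists, of which 163 genes were matched and 58 passed the filter for signal in the fluids. At 2% against 0% 11 rose and 5 fell by limma (27.6% of those tested against 20.8% of all genes, with a median of 0.01 against -0.01). These calls depend on the block for vessel: without it 0 of all genes passed in this comparison. At 1% against 0% 2 rose and 0 fell (3.45% against 4.78%), and between 2% and 1% 0 passed. In vessel 1 against the later vessels 11 were higher and 12 lower (39.7% against 34.7%). The interaction passed for 1 (1.72% against 0.801%). Of 3 other potassium channels tested 0 passed at 2%, and KCNK6, a two-pore-domain channel, was 0.73 higher in vessel 1 (adjusted p = 0.00933). Of 7 regulators of the sodium channel 1 rose, NEDD4L, the ubiquitin ligase that removes the channel from the membrane (0.33, adjusted p = 0.0361), which also rose at 1% (0.46, adjusted p = 0.0317). Of 3 sodium pump and FXYD genes 0 passed at 2%, and FXYD3, a regulator of the pump, passed for the interaction (1.16, adjusted p = 0.0240).

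Genes of chloride and bicarbonate transport moved in both directions at 2%, by calls that all depend on the block for vessel. Of 6 cotransporter genes and their kinases 2 fell, the potassium and chloride cotransporter SLC12A7 (-0.38, adjusted p = 0.0478) and SLC12A8 (-0.96, adjusted p = 0.0142). The volume-regulated anion channel subunit LRRC8A rose as the only 1 of 3 chloride channels tested (0.52, adjusted p = 0.0221), and of 9 exchangers and carbonic anhydrases SLC4A11 rose (0.25, adjusted p = 0.0417). Of 3 genes of sodium and hydrogen exchange and its scaffolds 2 rose, EZR, which links membrane proteins to actin (0.31, adjusted p = 0.0431), and CHP1 (0.25, adjusted p = 0.0497). In the cyclic nucleotide pathway that opens CFTR 4 of 15 rose and 2 fell, with the adenylyl cyclases ADCY9 (0.56, adjusted p = 0.00815) and ADCY3 (-1.13, adjusted p = 0.00892) on opposite sides and the adenosine receptor ADORA2B lower (-0.60, adjusted p = 0.0136). The water and glycerol channel AQP3, the 1 of 10 aquaporins that passed the filter for signal in the fluids, rose by 1.04 (adjusted p = 0.00707). Of 8 intestinal transcription factors KLF4 rose (0.24, adjusted p = 0.0258) and FOXA1 fell (-0.77, adjusted p = 0.0292).

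In the single arrays these lists were compared for size alone. With butyrate 14 of 48 genes were at least 1 log2 unit above medium and 6 below (41.7% against 31.2% of all genes). AQP3 was under the limit in medium alone (4.88). It was at 12.72 with butyrate (at least 7.72 higher), at 10.52 with NaCl (at least 5.52 higher) and at 10.43 to 11.29 with 0% fluid (at least 5.94 higher on average). NHERF1, a scaffold of CFTR, was 1.70 higher with butyrate. FOXA1 differed by -2.73. With NaCl 11 of 47 were higher and 4 lower (31.9% against 16.6%). The pump subunit ATP1B3 was 1.38 higher beside ATP1B1, the kinase WNK1, which controls SLC12A2 through other kinases, was 1.39 higher, and STK39, such a kinase, differed by -1.07. TSC22D3, a glucocorticoid-induced protein that acts on the sodium channel, was 4.34 higher with NaCl, and SLC4A11 3.84 higher. In 0% fluid 9 of 48 were higher than in medium and 2 lower (22.9% against 12.6%), with FXYD3 at 2.32 higher. Against butyrate 2 of 49 were higher in 2% fluid and 1 lower (6.12% against 5%).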

How the data were processed

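Total RNA from 15 cultures was biotin-labelled and hybridised to Affymetrix arrays, 1 array each, per the labels' protocols. The authors deposited log2 values of 54675 probe sets, which were background-corrected, normalized and summarized with GCRMA, per the submitters' processing notes; the log2 scale was inferred from the values, and its version is not given in the sources used here. The work started from these values, and background correction makes low values uncertain, so values under log2 5 were treated as unreliable. All 15 columns were used.

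Probe sets with 1 gene symbol (41097; 1801 had several and 11777 none) were joined to 19775 genes, each read from its brightest probe set. Tests covered 8737 genes that reached 5 on 4 or more of the 12 fluid arrays. limma 3.58.1 (R 4.3.3) was fitted with concentration and vessel as factors over all 12 fluid arrays, with 6 residual degrees of freedom. Two-sided p-values got the Benjamini-Hochberg adjustment over all genes tested, with a threshold of 0.05. The vessel number is a labelled compartment and so a block. With concentration means taken out, arrays of the same vessel correlated with a median of 0.376 over 12 pairs, 10 of them above 0.1. Arrays of different vessels had a median of -0.114 over 36 pairs, 15 of them above 0.1 (range -0.65 to 0.55). Tested on simulated data of 8737 genes for 2% against 0%, the fit recovered 83.6% of 67 changes of 1 log2 unit and 43.3% of 67 changes of 0.5. The simulated noise was independent between arrays, with no correlation of connected vessels. Single arrays were compared without a test among genes that reached 6 on the brighter side and were counted from a difference of 1. A side wholly under 5 was set to 5 and the difference called a bound.

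Named genes are the 7 genes, up to 4 genes per list and comparison by smallest adjusted p (largest difference for single arrays) and the 3 closest in pattern, of which examples are given. The members and lists were chosen with earlier results of these data known. The closing section gives the alternatives: filters, probe sets, scaling, the prior, the block and arrays left out. Of 186 listed genes 23 had no probe set of their own and were not analysed here.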

Additional observations from a re-analysis of the deposited data

Results flagged for a closer look

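ATP1B1 in vessel 1 of 1% stood apart from the other vessels of that concentration, at 12.52 against 12.05 for the next, a gap of 0.844 of the range of the 4 values. Chance alone sets about 1 in 20 such groups apart, and 15 groups were checked.

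The slope on polydextrose differed between vessel 1 and the later vessels for KCNE3 (0.76 log2 units per percent, limma, adjusted p = 0.0390) and SCNN1A (0.93, adjusted p = 0.0325), by the test of the difference itself. In vessel 1 KCNE3 was 0.11 higher with 1% than with 0% and 0.41 lower with 2%, and SCNN1A 0.48 and 0.38 higher.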

How the results depend on the processing

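Of 575 values of single genes under the alternatives, 479 kept their direction and side of the threshold, or moved less than the spread between arrays. This total includes genes that passed in no main fit. With the main fit included, KCNE3 passed at 2% against 0% in 23 of 24 fits and SCNN1A in 11 of 23. For vessel 1 they passed in 20 of 22 and 17 of 21, and for the interaction in 5 of 15 and 7 of 15. The 2 genes that passed at 2% against 0% came to 1 with the mean of probe sets, 1 from the 8 arrays compared and 0 with no replicate block, and to 1 to 2 with each array left out. Over all genes the 1820 of the main fit came to 1370, 863 and 0 with these settings, and to 656 to 3058 with each array left out. At 1% against 0% the 0 became 2 without vessel 1, with or without the block, and 0 to 2 with arrays left out. Over all genes the 418 of this comparison became 1136 with and 1332 without the block, and 0 to 1185 with arrays left out. At 2% against 1% it became 1 from the arrays compared, 2 without vessel 1, with or without the block, and 0 to 1 with arrays left out. The fits without both vessel 1 and the block were added after seeing the data. In vessel 1 against later vessels the 2 became 0 with no concentration term or with a linear trend, 3 with no filter on low values, where CFTR passed, and 1 to 3 with arrays left out. ATP1B1 passed without vessel 1 of 0% (0.32, adjusted p = 0.0346 by limma). Over all genes the 3035 of this comparison became 1656 to 3704 with arrays left out. The 2 interactions became 0 with vessel as a linear term and 0 to 2 with arrays left out, where the 70 of all genes became 0 to 781. No other call of the 7 genes changed with the block.

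For single arrays the count became 1 with the mean of probe sets for butyrate against medium, 1 with it and 3 from a difference of 0.5 for NaCl, and 0 with it for 2% fluid against butyrate. For 0% fluid against medium the 0 became 1 when centred on the array median, with the mean of probe sets, from a difference of 0.5 or with NaCl as the control. The mean of probe sets includes silent ones.

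Signs turned only for genes that did not pass. Without vessel 1, with or without the block, KCNQ1 differed by -0.087 at 2% against 0% and by -0.10 at 2% against 1%, where ATP1B1 differed by 0.054. The second SLC12A2 probe set gave 0.0011 at 1% against 0% and -0.012 at 2% against 1%. With arrays left out, the ranges that crossed 0 were -0.039 to 0.31 for KCNQ1, -0.14 to 0.020 for SLC12A2 and -0.14 to 0.0054 for ATP1B1 at 2% against 0%, -0.056 to 0.26 (KCNQ1) and -0.13 to 0.061 (ATP1B1) at 1% against 0%, and -0.15 to 0.20 (KCNQ1) and -0.12 to 0.071 (ATP1B1) at 2% against 1%. For vessel 1 they were -0.28 to 0.19 (KCNQ1) and -0.011 to 0.17 (SLC12A2), and for the interaction -0.30 to 0.43 (ATP1B1) and -0.14 to 0.50 (SLC12A2). The number of arrays limits the precision, and signal under the limit hides CFTR and SLC26A3.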
